A study of Mus musculus with 2 samples.

Results

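The secreted antimicrobial proteins outside the REG family are described here in the gut epithelial preparations of Lrrc19 KO and WT mice. They were the 9 genes Retnlb, Ang4, Lyz1, Lyz2, Itln1, Pla2g2a, Pglyrp1, Slpi, and Defb1, chosen by name, and 13 of the 45101 probe sets on the array carried the symbol of a member. None of the 13 carried the symbol of another gene, but 4 had the type of identifier that Affymetrix gives to probe sets able to match several transcripts. Each genotype was measured on 1 array, hybridized with RNA pooled in equal parts from 5 mice. The Lrrc19 KO pool came from mice deficient in Lrrc19, a leucine-rich repeat receptor of the gut epithelium, and the WT pool from mice with the gene intact. In each pool 2 mice were male and 3 were female, all were 6 weeks old, of C57BL/6 background, and kept free of specific pathogens. Their intestines were shaken in EDTA, and magnetic sorting then took out macrophages, dendritic cells, B cells, and cells bearing CD4 or CD8. The labels name no segment of the intestine, and the sources used here do not name the deleted exons.

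Antimicrobial proteins are released into the mucus by secretory cells of the epithelium and limit contact between bacteria and the tissue. Some break bacterial structures, such as lysozyme, which cuts the peptidoglycan of the cell wall, and secreted phospholipase A2, which hydrolyzes membrane phospholipids. Others bind the bacterial surface or disrupt membranes, and several are made by Paneth cells at the base of small intestinal crypts or by goblet cells of the colon.

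None of these genes differed 2-fold between the pools. The values were intensities in arbitrary units, and the median over all probe sets, 127, served as a floor below which a value was not read as expression. Of the 9 genes, 8 reached it in at least 1 pool, 7 reached it in both, and Pla2g2a stayed under it in both. Pglyrp1 had the lowest log2 difference of the 8, at 1.49-fold lower in Lrrc19 KO, and Ang4 the highest, at 1.35-fold higher on its brighter probe set. Defb1 lay between them in size on the lower side, with its Lrrc19 KO value under the floor. Among all 12518 genes at or above the floor, 0.967% differed at least 2-fold, of which 70 (0.559%) were higher and 51 (0.407%) were lower in the Lrrc19 KO pool. At 1.5-fold 6.18% of all genes passed (2.78% higher and 3.4% lower), and again none of the 8 members did. With so small a share past either size in the whole series, a count of 0 among 8 genes does not set them apart. Of the 8 members, 2 had a log2 difference (Lrrc19 KO minus WT) above 0 and 6 below, with a median of -0.19. Over all genes 6517 were above 0 and 6001 below, with a median of 0.01. Defb1 is among the 6 although only its WT value reached the floor, so its direction follows from how it was let in. Without Defb1, 2 of the remaining 7 members were above 0 and 5 below, with a median of -0.08. With the arrays centered on housekeeping genes, where Defb1 dropped under the floor, the member median was 0.04, beside 0.13 over all genes.

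Because each genotype had a single pool, no test could be run, the spread between mice is unknown, and precision is limited by having a single array for each genotype. The robust SD of the log2 difference over all genes was 0.27, and it holds array noise together with differences between the pools. The direction of a difference also rests on how the arrays were scaled. The submitters list RMA, but the values are not of the form it usually returns, so the scaling is not known. The 70 genes that were higher and 51 lower became 53 and 76 when the arrays were given a common median, and 101 and 30 when they were centered on housekeeping genes. Lrrc19 itself had an intensity of 212 in the Lrrc19 KO pool, against 905 in the WT pool, on the brighter of its probe sets, and 20.9 against 391 on the other. The epithelial markers Epcam, Cdh1, Vil1, Fabp2, Krt20, and Alpi were all at or above the floor, and so were all 6 smooth muscle markers, with a summed intensity of 64091 in the Lrrc19 KO pool and 48259 in the WT pool. In pools of this kind, fewer cells of a type and less RNA per cell cannot be told apart.

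**Figure D1:**
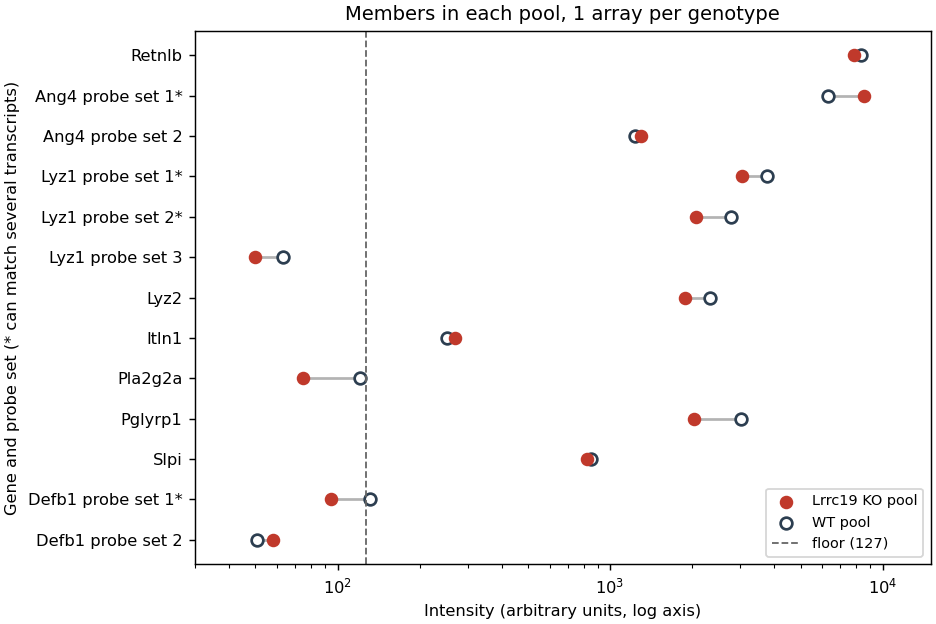
Intensity (arbitrary units, log axis) of the 13 probe sets of the 9 members in the Lrrc19 KO pool (filled) and the WT pool (open), from 1 array each, so there are no error bars. The floor of 127 is drawn as a dashed line. Among probe sets that reached the floor on each array, Pglyrp1 (2035 in Lrrc19 KO and 3033 in WT) has the widest gap and Ang4 probe set 1 (8522 and 6319) the widest with Lrrc19 KO higher, and Pla2g2a, Lyz1 probe set 3, and Defb1 probe set 2 lie under the floor in both pools.

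The sequences before the start sites of Ang4, Pglyrp1, Lyz1, and Lyz2 are shown because Ang4 had the highest and Pglyrp1 the lowest log2 difference of the measured members, and because Lyz1 and Lyz2 are near copies of each other. RefSeq windows of the GRCm38.p6 build were found for 6 of the 9 members, and the 250 bases before the start are printed on the gene's own strand, with Ang4 at chr14:51773591-51773840 (minus strand), Pglyrp1 at chr7:18884440-18884689 (plus strand), Lyz1 at chr10:117292869-117293118 (minus strand), and Lyz2 at chr10:117282273-117282522 (minus strand). Capitals mark every match, on either strand, to 6 motifs, namely the kappaB motif bound by NF-κB, the STAT motif TTCNNNGAA and its longer form with 4 unspecified bases between TTC and GAA, the AP-1 motif TGANTCA, the ETS core GGAAGT, and the TATA sequence TATAAA.
Ang4: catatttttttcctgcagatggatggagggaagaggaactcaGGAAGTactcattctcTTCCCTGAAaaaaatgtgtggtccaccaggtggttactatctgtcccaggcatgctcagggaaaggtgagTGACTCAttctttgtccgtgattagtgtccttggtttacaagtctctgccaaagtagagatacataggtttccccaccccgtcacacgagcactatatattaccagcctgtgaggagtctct
Pglyrp1: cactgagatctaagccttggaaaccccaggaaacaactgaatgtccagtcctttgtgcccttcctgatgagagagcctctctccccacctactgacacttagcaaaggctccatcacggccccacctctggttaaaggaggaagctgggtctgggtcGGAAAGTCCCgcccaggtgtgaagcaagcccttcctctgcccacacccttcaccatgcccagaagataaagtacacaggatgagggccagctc
Lyz1: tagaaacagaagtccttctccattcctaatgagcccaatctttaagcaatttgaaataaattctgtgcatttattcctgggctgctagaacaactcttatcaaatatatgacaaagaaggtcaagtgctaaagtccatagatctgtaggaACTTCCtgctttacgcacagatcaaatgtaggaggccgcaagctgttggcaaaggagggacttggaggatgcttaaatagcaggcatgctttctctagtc
Lyz2: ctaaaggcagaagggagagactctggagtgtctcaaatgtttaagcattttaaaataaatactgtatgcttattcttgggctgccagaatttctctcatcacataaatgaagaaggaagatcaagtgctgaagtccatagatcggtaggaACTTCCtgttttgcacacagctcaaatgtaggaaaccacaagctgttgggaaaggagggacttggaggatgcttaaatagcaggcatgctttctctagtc
The Ang4 window held a TTCNNNGAA match, a TGANTCA match, and a GGAAGT match, none of them overlapping. The only match in the Pglyrp1 window was to the kappaB motif. Lyz1 and Lyz2 each held a single GGAAGT match, on the opposite strand, from 100 to 95 bases before the start in each. Of 32851 RefSeq windows of this length, 7.02% held TTCNNNGAA, 5.85% held the longer STAT form, 6.75% held TGANTCA, 19.7% held GGAAGT, 12.4% held TATAAA, and 7.25% held the kappaB motif. A match is a description of the letters and not evidence of binding. Between the Lyz1 and Lyz2 windows, 200 of the 250 bases were identical when aligned, 79.4% of the alignment, against 44.4% between Lyz1 and Ang4.

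Among the enzymes, the lysozymes were somewhat lower in the Lrrc19 KO pool on the probe sets that reached the floor. Lyz2, the lysozyme of macrophages and other myeloid cells, had an intensity of 1883 in the Lrrc19 KO pool and 2330 in the WT pool (1.24-fold lower). Lyz1, the form made by Paneth cells, was at 3059 and 2059 in the Lrrc19 KO pool on its brighter probe sets, against 3769 and 2775 in the WT pool (1.23-fold and 1.35-fold lower). Both of these can match several transcripts. The third Lyz1 probe set, which is not of that type, was under the floor in both pools, at 49.9 in Lrrc19 KO and 62.8 in WT. The reading of Lyz1 as expressed therefore rests on the probe sets of that type, and the annotation names only Lyz1 for them. Lyz1 lies next to Lyz2 on chromosome 10. The log2 difference of Lyz1 was -0.30 on its brightest probe set and -0.43 on the next, beside -0.31 for Lyz2. Of all genes, 14.7% were at least as far below 0 as Lyz1 and 14.2% as far as Lyz2.

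Signs of the cells that make lysozyme were mixed. Of 10 macrophage markers, 9 were at or above the floor, 7 of these had a log2 difference below 0 and 2 above, none passed 2-fold, and the median was -0.15. Their summed intensity was 7051 in the Lrrc19 KO pool and 8413 in the WT pool. The macrophage receptor Adgre1 was at 363 in Lrrc19 KO and 606 in WT, the complement component C1qa at 1467 and 1886, and Cd68 was under the floor in both pools. Paneth cell products were close to absent on the probe sets for alpha-defensins, the peptides that define these cells. The 5 such probe sets, 2 of them with symbols of several genes, lay between 17.0 and 157 in the Lrrc19 KO pool and between 21.3 and 159 in the WT pool, and 1 of them, Defa39, reached the floor. Mmp7, the Paneth cell protease that activates alpha-defensins in mice, was at 261 in Lrrc19 KO and 284 in WT. The stress-induced regulator Nupr1, also on the Paneth list and not limited to these cells, was 2.27-fold lower (3494 in Lrrc19 KO and 7916 in WT). With Habp2, which stayed under the floor in both pools, 3 of the 10 Paneth entries had an own probe set. Their summed intensity was 3880 in the Lrrc19 KO pool and 8312 in the WT pool. Most of each sum was Nupr1, whose probe sets can match several transcripts. With probe sets of that type left out, no Paneth entry was 2-fold lower, and the median log2 difference went from -0.65 to -0.12, the value of Mmp7. What part the mixture of cells had in the lysozyme values was not tested.

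Pla2g2a, the group IIA secreted phospholipase A2, was not measured as expressed in either pool. Its probe set was at 75 in the Lrrc19 KO pool and 121 in the WT pool, under the floor in both, so no fold is given. C57BL/6 mice are known to carry a disrupted copy of this gene, and RefSeq lists it as a transcribed pseudogene. Of 11 other secreted phospholipases A2 and relatives, 8 reached the floor, with a median log2 difference of -0.12 and none past 2-fold. Pla2g10, an active enzyme of this family, was at 1596 in Lrrc19 KO and 1797 in WT. Pla2g12b, a member without catalytic activity, was farthest apart, at 102 in Lrrc19 KO, under the floor, and 183 in WT.

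Of the proteins that bind the bacterial surface, Pglyrp1 was lower and Itln1 was close to equal. Pglyrp1, a secreted protein that recognizes peptidoglycan, had an intensity of 2035 in the Lrrc19 KO pool and 3033 in the WT pool. Its log2 difference of -0.58 was 2.26 times the robust SD of genes of similar brightness, and 449 of all genes (3.59%) were at least as far below 0. It has a single probe set, so no second measurement on the arrays bears on it. Pglyrp1 is best known as a granule protein of neutrophils. Of 9 neutrophil markers with a probe set of their own, 7 were under the floor in both pools, among them S100a8 (41.2 in Lrrc19 KO and 42.6 in WT), S100a9 (28.6 and 19.7), Mpo (104 and 92.0), and Elane (95.7 and 109). The remaining markers were Csf3r, at 871 in Lrrc19 KO and 813 in WT, and Camp, at 131 and 136, and the summed intensity of the list was 1444 in Lrrc19 KO and 1377 in WT. Most of that sum was Csf3r, and what part neutrophils had in the Pglyrp1 value was not tested. The other peptidoglycan recognition protein with an own probe set, Pglyrp2, was at 23.6 in Lrrc19 KO and 31.5 in WT, under the floor. Itln1, intelectin 1, a lectin that binds sugars on the surface of microbes, had 270.5 in the Lrrc19 KO pool and 251 in the WT pool. Its log2 difference of 0.11 was small, since 69.3% of all genes were at least that far from 0. The other entries of the intelectin list, Itln2 and Itlnb, were not analyzed here.

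**Figure D2:**
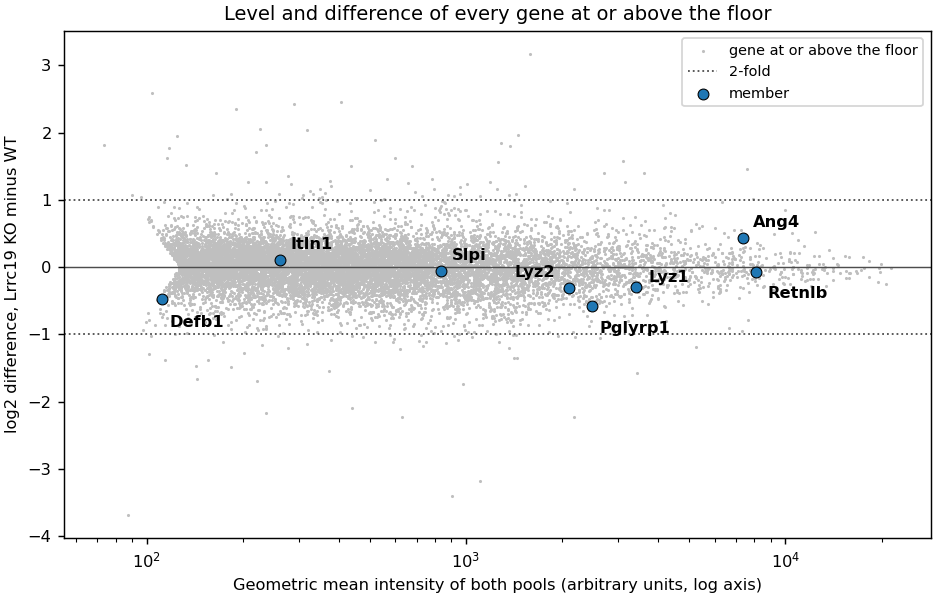
Log2 difference (Lrrc19 KO minus WT) against the geometric mean intensity of both pools (arbitrary units, log axis) for the 12518 genes at or above the floor (gray) and the 8 members among them (blue), with dotted lines at 2-fold. All 8 members lie between the dotted lines, with Ang4 (0.43) highest and Pglyrp1 (-0.58) lowest, and the pointed left edge of the cloud is set by the floor.

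Of the cationic proteins that act on bacteria directly, Retnlb and Ang4 were bright in both pools. Retnlb, the resistin-like molecule beta that goblet cells of the colon secrete, had an intensity of 7877 in the Lrrc19 KO pool and 8325 in the WT pool. Its log2 difference was -0.08, and 76.5% of all genes were at least that far from 0. Its neighbor on chromosome 16, Retnla, another resistin-like molecule, was at 1275 in Lrrc19 KO and 1193 in WT. Retn, the adipocyte hormone resistin, was at 123 in Lrrc19 KO, under the floor, and 199.8 in WT. Neither of these relatives passed 2-fold.

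Ang4, a ribonuclease of the angiogenin family that mouse Paneth and goblet cells secrete, gave unequal readings on its probe sets. The brighter one, which can match several transcripts, was at 8522 in the Lrrc19 KO pool and 6319 in the WT pool (log2 difference 0.43). The other one, not of that type, was at 1302 in Lrrc19 KO and 1239 in WT (0.07). The gap of 0.36 between them can be set beside 4529 genes that had 2 or more probe sets above the floor on each array, where the median gap was 0.173, 90% of gaps were under 0.459, and 18.5% were at least as large as that of Ang4. For Lyz1 the gap between the brighter probe sets was 0.13. The higher reading of Ang4 in Lrrc19 KO therefore depends on which probe set is used.

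The ribonucleases related to Ang4 did not share a direction. Ang, the first angiogenin, had lower values in Lrrc19 KO on all 3 of its probe sets, at 2241, 1448, and 285 in Lrrc19 KO, against 3352, 2183, and 476 in WT. Their log2 differences were -0.58, -0.59, and -0.74, and all but the dimmest of these probe sets can match several transcripts. Rnase4, which shares its locus with Ang, was 1.64-fold lower (2589 in Lrrc19 KO and 4243 in WT). Ang2 (65.0 in Lrrc19 KO and 56.4 in WT) and Ang3 (69.4 and 57.6) did not reach the floor. Of the 7 ribonuclease A genes on the array apart from Ang4, 4 reached the floor, none passed 2-fold, 3 were below 0 and 1 above, and the median was -0.41. With the floor at the 25th percentile of all probe sets, which let in more dim genes, the median was -0.03. The remaining members of this list at or above the floor were Rnase1, at 420.0 in Lrrc19 KO and 362 in WT, and Rnase10, at 129 and 151. The difference between Ang4 and its relatives has no replicate check.

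Defb1, a beta-defensin that many epithelia make at a steady level, stood at the floor. Its probe set of the type that can match several transcripts was at 94.6 in Lrrc19 KO, under the floor, and 132 in WT, barely above it. The other Defb1 probe set ran the opposite way under the floor, at 58.1 in Lrrc19 KO and 50.5 in WT. No fold is given, and raising values below the floor to 127 shrank the log2 difference of -0.48 to -0.05. Of 19 other beta-defensins, 16 were under the floor in both pools and 3 reached it, with none past 2-fold and a median of 0.08. The brightest of these was Defb45, at 668 in Lrrc19 KO and 632 in WT. Beta-defensins were thus near the limit of the measurement, as were the alpha-defensins, for which 1 of 3 genes with an own probe set was at or above it.

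Slpi, the secretory leukocyte protease inhibitor, blocks neutrophil elastase and also acts on microbes. It had an intensity of 820.2 in the Lrrc19 KO pool and 851 in the WT pool, a log2 difference of -0.05, the smallest in size among the 8 members. Its relatives of the WFDC family, small proteins built on the same four-disulfide fold, differed more. Wfdc2 was 1.83-fold higher (3479 in Lrrc19 KO and 1901 in WT). Wfdc18 was 1.92-fold lower (980.4 in Lrrc19 KO and 1884 in WT), on a probe set that can match several transcripts, and Wfdc17 was 1.64-fold lower (267 in Lrrc19 KO and 438 in WT). Of 12 genes of this family, 7 reached the floor, none passed 2-fold, and the median was 0.05, since 4 were above 0 and 3 below.

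Other genes of mucosal defense, for secreted proteins and related factors, spread in both directions. Of 24 on the array, 17 were at or above the floor, with a median log2 difference of 0.03 and none past 2-fold. At 1.5-fold 5 were higher and 2 were lower, beside 2.78% and 3.4% of all genes. This list was written with earlier results of these data known. The higher ones were Dmbt1, a scavenger protein that agglutinates bacteria (13384 in Lrrc19 KO and 7408 in WT), the mucosal pentraxin Mptx1 (4368 and 2839), the oxidase maturation factor Duoxa2 (334 and 201), the peptide hormone gene Adm (198 and 121), and Lcn2, which binds bacterial siderophores (183 and 113). For Adm and Lcn2 the WT value was under the floor. The probe sets read here for Dmbt1, Adm, and Lcn2 can match several transcripts. The lower ones were the hormone genes Nts (1549 in Lrrc19 KO and 3013 in WT) and Chga (876 and 1327), whose products also yield antimicrobial fragments. Lypd8, which coats flagellated bacteria in the colon, was nearly equal, at 21369 in Lrrc19 KO and 21501 in WT. Pigr, the receptor that carries IgA into the lumen, was at 14724 in Lrrc19 KO and 13436 in WT, and the lectin Zg16 was at 13324 and 12893 on its brightest probe set. The other probe sets of Zg16 were lower, at 10487 and 2176 in Lrrc19 KO against 12538 and 4726 in WT. With probe sets that can match several transcripts left out, Zg16 was 2.17-fold lower.

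Retnlb, Ang4, and Itln1 are made by goblet cells, whose other genes were not equal between the pools. Of 9 goblet cell markers all reached the floor, 6 were below 0 and 3 above, none passed 2-fold, and the median was -0.22. Their summed intensity was 68951 in Lrrc19 KO and 82809 in WT. On single-transcript probe sets alone 1 was 2.17-fold lower, Zg16 (2176 in Lrrc19 KO and 4726 in WT), and the median was -0.33. The mean of probe sets also put 1 marker at least 2-fold lower. Agr2, which folds mucins, was at 5266 in Lrrc19 KO and 10151 in WT (235 and 545 on its dimmer probe set), the kallikrein Klk1 at 5834 and 10026 on the brightest of 4 probe sets, whose log2 differences ran between -0.82 and 0.18, and the goblet cell transcription factor Spdef at 476 and 794. Muc2, the main mucin of intestinal mucus, was at 18071 in Lrrc19 KO and 20977 in WT, and Clca1 and Fcgbp, abundant proteins of that mucus, were at 6532 and 6949 in Lrrc19 KO, against 6337 and 6312 in WT. The log2 difference of Retnlb (-0.08) lay inside the spread of the 9 goblet cell markers. At the low end were Agr2 (-0.95), Klk1 (-0.78), Spdef (-0.74), and Tff3 (-0.45). The rest were Muc2 (-0.22), Spink4 (-0.18), Clca1 (0.04), Zg16 (0.05), and Fcgbp (0.14). Of 14 genes of granules and of the secretory lineage, 13 were below 0 and 1 was above, with a median of -0.20. In this list the transcription factor Creb3l4 was more than 2-fold lower as measured (123 in Lrrc19 KO, under the floor, and 399 in WT) and none was higher. The Creb3l4 probe set can match several transcripts, and on single-transcript probe sets alone no gene of the list was 2-fold lower. Atoh1, which commits cells to the secretory lineage, was 1.54-fold lower (1434 in Lrrc19 KO and 2207 in WT), and Xbp1, which expands the secretory apparatus, was at 5529 and 5488 on its brightest probe set. The other Xbp1 probe sets ran in both directions, at 5140.3, 3287, and 485 in Lrrc19 KO, against 4258, 4997, and 480.3 in WT. The lower granule and lineage genes stood beside members that ran in both directions, and their part in the members' values was not tested.

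**Figure D3:**
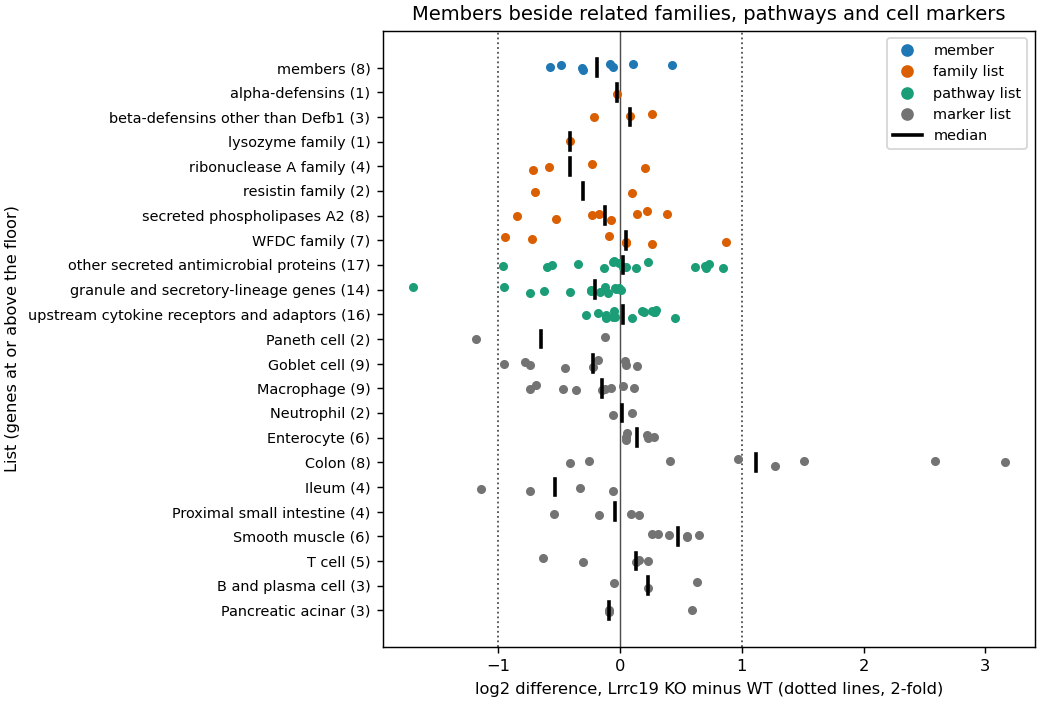
Log2 difference (Lrrc19 KO minus WT) of each gene at or above the floor in the members, the related families, the pathway lists, and the marker lists, with the number of genes in parentheses, black bars at the medians, and dotted lines at 2-fold. The members (median -0.19) lie within 2-fold, the granule and secretory-lineage genes (-0.20) lie mostly to the left of 0, and with the arrays as deposited all 6 smooth muscle markers (0.48) and 6 of 8 colon markers (1.12) lie to the right.

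Markers of gut regions differed between the pools as well, which bears on genes made in one segment more than in another. Of 8 colon markers all reached the floor, 6 had a log2 difference above 0 and 2 below, 4 were at least 2-fold higher in Lrrc19 KO, none was at least 2-fold lower, and the median was 1.12, with a summed intensity of 49870 in Lrrc19 KO and 40224 in WT. The 4 were Atp12a (4760 in Lrrc19 KO and 531 in WT), Hoxd13 (255 and 42.4), Hoxb13 (738 and 259), and Aqp8 (4873 and 2019), and the WT value of Hoxd13 was under the floor. The other Hoxd13 probe set was under it in both pools, at 57.0 in Lrrc19 KO and 70.5 in WT. The markers below 0 were Car1 (18909 in Lrrc19 KO and 22420.1 in WT) and Mettl7b (3133 and 4152). Of 4 ileum markers 1 was at least 2-fold lower, Osr2 on its brighter probe set (215 in Lrrc19 KO and 472 in WT), while its other probe set was at 142 and 126. The median of the ileum list was -0.53 (-0.19 on single-transcript probe sets alone) and its summed intensity was 15846 in Lrrc19 KO and 16966 in WT. Most of each sum was Guca2a (15110 in Lrrc19 KO and 15777 in WT). Fabp6 was at 151 in Lrrc19 KO and 251 in WT, and Slc10a2 at 372 and 466. Of 5 markers of the proximal small intestine 4 reached the floor, none passed 2-fold, and the median was -0.04, with a summed intensity of 2772 in Lrrc19 KO and 2677 in WT. Many of these lists were written with earlier results of these arrays known. How much of the members' differences came with the makeup of each preparation was not tested.

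The direction of 4 of the 8 members did not hold under every scaling. Retnlb was at 0.04, Slpi at 0.06, and Ang4 at 0.55 with the arrays centered on housekeeping genes, a setting that moved the median of all genes to 0.13. Pglyrp1 was below 0 under all 10 alternatives that gave a value, between -1.07 and -0.46, and Lyz2 likewise, between -0.80 and -0.19. Each has a single probe set well above the floor, so the alternative floors and probe set rules could not alter its value. None of the alternatives is a new measurement. The control transcripts spiked into each hybridization, which come from bacteria and phage, were brighter on the Lrrc19 KO array on all 18 probe sets, by a median log2 difference of 0.50. Centering on them, a choice made after the values were seen, moved the median of all genes to -0.49 and turned Ang4 to -0.07 and Itln1 to -0.39. Under it Pglyrp1 passed 2-fold as lower (2.10-fold), and so did Pla2g2a, for which no fold is given since its scaled Lrrc19 KO value of 53.1 was under the floor, beside 677 genes lower and 22 higher in all (5.38%). Relative to that median, Pglyrp1 was not farther from the other genes than in the values as deposited.

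The medians of the ribonuclease A list (-0.90 to -0.29), the granule and secretory-lineage list (-0.70 to -0.08), the goblet cell markers (-0.71 to -0.10), and the macrophage markers (-0.75 to -0.03) were below 0 under all 4 other scalings, and that of the colon markers was above 0 (0.62 to 1.24). The smooth muscle median was between 0.40 and 0.60 except with spike-ins (-0.02). A common median put Wfdc18, Nts, and Agr2 just past 2-fold as lower.

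**Figure D4:**
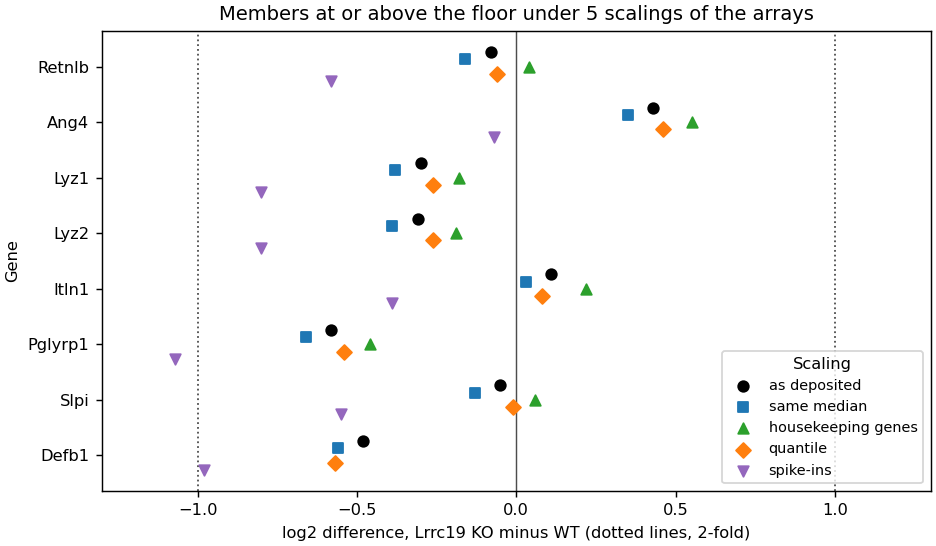
Log2 difference (Lrrc19 KO minus WT) of the 8 measured members with the arrays as deposited and under 4 other scalings, with dotted lines at 2-fold. Pglyrp1, Lyz1, and Lyz2 lie to the left of 0 under each, Retnlb and Slpi lie on either side of it, and Defb1 has no point for housekeeping genes because it fell under the floor there.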

How the data were processed

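RNA of gut epithelial preparations, pooled from 5 mice per genotype, was measured in Lrrc19 KO and WT on an Affymetrix mouse genome array each. The deposited values are probe set intensities on a linear scale, from 1 to 25842. RMA is the tool that the submitters' processing notes list, without a version, but it usually returns log2 values of equal distribution, whereas these had medians of 131 (Lrrc19 KO) and 124 (WT), so the scaling between arrays is not known.

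Log2 was taken after raising values below 1 to 1. Of 45101 probe sets, 64 controls were set aside, 34945 carried 1 gene symbol, 932 several, and 9160 were unnamed here. Symbols were updated with RefSeq (GRCm38.p6), which held 34741 of those with 1 symbol. A gene was represented by its probe set of highest mean log2 value (18193 genes), and by the median of all probe sets as a floor (127), 12518 genes were read as measured. No gene coordinates are given, since the arrays name no build, and promoter windows are RefSeq's. No test was run with 1 array per genotype. Alternatives covered scaling, floor, probe set rule, pseudocount, and fold size. The calculation was tested on simulated data. Python 3.11.15, pandas 2.3.3, numpy 2.4.6, and biopython 1.88 (global alignment) were used.

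Members and lists were chosen with earlier results of these data known. The genes named are all members, Lrrc19, the defining markers, and, of each related list, those at or above the floor that were at least 1.5-fold apart and up to 3 of the brightest. Genes named beyond this rule were chosen after their values were seen.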

Additional observations from a re-analysis of the deposited data

How the results depend on the processing

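No member passed 2-fold as higher under any alternative, and none as lower under any of those laid down with the design (same median, housekeeping genes, quantile normalization, mean of probe sets, single-transcript probe sets, pseudocount of 32, floors at the 25th and 75th percentiles, low values raised to the floor, 1.5-fold). Centering on spike-ins, chosen after the values were seen, gave 2 members as lower, Pglyrp1 and Pla2g2a. That setting called 677 genes lower and 22 higher in all, against 51 and 70 as deposited, because it lowered every difference by the same amount. The mean of all probe sets of a gene called 46 higher and 39 lower, and quantile normalization 71 and 48. Of 66 values of single members under those alternatives, 64 moved by less than the robust SD of all genes (0.27). The exceptions were Ang4 on its single-transcript probe set (0.07) and Defb1 with low values raised to the floor (-0.05). Many of the values could not move. A changed floor leaves a difference as it is, and the probe set rules cannot alter a gene with a single probe set. A common median and housekeeping genes shift every gene by the same amount, so the count of 64 does not measure stability. Housekeeping genes, 8 of the 11 listed having a probe set of their own, turned Retnlb to 0.04 and Slpi to 0.06. On single-transcript probe sets alone, Lyz1 and Defb1 gave no value. No paired analysis was possible because each genotype has a single pool. For the same reason no replicate could be left out. Differences of probe sets near the floor of 127 are limited by signal over background.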

Other observations

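Receptors and adaptors upstream of these genes differed little. Of 18 genes of cytokine and microbial sensing that are known to regulate antimicrobial proteins, 16 reached the floor, none passed 1.5-fold, 8 were above 0 and 8 below, and the median log2 difference was 0.03. Il22ra1, the epithelial receptor chain for IL-22, was at 546 in Lrrc19 KO and 474 in WT, and Stat3, which signals below it, at 1382 and 1154. Il4ra and Il13ra1, receptor chains for the type 2 cytokines that induce Retnlb, were at 419.9 and 384 in Lrrc19 KO, against 391 and 465 in WT. The epithelial cytokine Il18 was at 1334 in Lrrc19 KO and 979 in WT, and the NF-κB inhibitor Nfkbia at 6384 and 5237.

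The small proline-rich proteins of the Sprr2a group, which also act on bacteria, were read only on probe sets with symbols of several genes, so no value is assigned to a single gene. A probe set of Sprr2a1 and Sprr2a2 was 2.08-fold higher in the Lrrc19 KO pool (6764 in Lrrc19 KO and 3246 in WT), and another of the same genes was 1.24-fold higher (20309 and 16398). The brightest, which also carries the symbol Sprr2a3, was 1.2-fold higher (25842 in Lrrc19 KO and 21542 in WT). The lysozyme relatives outside Lyz1 and Lyz2 were mostly unmeasured, since 6 of 7 were under the floor in both pools, and Spaca3 was at 187 in Lrrc19 KO and 249.6 in WT. Enterocyte markers, all 6 of them at or above the floor, had a median log2 difference of 0.14 and a summed intensity of 49826 in Lrrc19 KO and 44614 in WT. T cell markers had a median of 0.13 over 5 genes, B and plasma cell markers 0.23 over 3, and pancreatic acinar markers -0.09 over 3.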
